A study of Mus musculus with 2 samples.

Results

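Inmt and Gdf10 fibroblasts are a class of fibroblasts of the mouse aortic arch, chosen cell by cell for RNA of Inmt, Gdf10 and their companion genes. Of 8155 cells kept from single-cell RNA sequencing, 201 belonged to the class, 155 of 5416 cells in the ND library and 46 of 2739 cells in the HFD library. A cell was a fibroblast when it held RNA of at least 3 of Dcn, Col1a1, Col1a2, Col3a1, Pdgfra and Lum, no Ptprc, and not both Pecam1 and Cdh5. Cells with more than 2 UMIs of Cxcl14 were set aside as Cxcl14-high. Each remaining cell was scored by the number of genes it held from 3 lists of 5 genes: Inmt, Gdf10, Ism1, Ptgfr and Nbl1 for this class, Pi16, Cd248, Sema3c, Pcsk6 and Gfpt2 for Pi16-type fibroblasts, and Fmod, Wisp2, Cpxm2, Hhip and Rbp4 for Fmod-type fibroblasts. A member held at least 2 genes of the first list, and more of it than of either other list. These measured values chose the members, so the levels of the listed genes describe the class and are no finding about it.

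The study compared the aortic arch of atherosclerosis-prone mice on 2 diets. Both groups were male C57BL/6 mice without apolipoprotein E (Apoe-/-), 16 weeks of age, so the Apoe deletion was shared by both. After weaning at 4 weeks the ND mice, the control group, ate chow and the HFD mice ate a Western diet, high in fat and cholesterol, for 12 weeks. Each diet was 1 library from the pooled cell suspension of 2 aortas, prepared with an enzyme kit for lung tissue, so mice cannot be told apart within a library, and diet and library cannot be told apart. There were no replicates, no difference was tested, and the spread between mice is unknown.

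Fibroblasts of the arterial adventitia make collagens, proteoglycans and elastic fibre proteins, and hold several states that differ in the growth factors and chemokines they secrete. Inmt encodes indolethylamine N-methyltransferase, which puts methyl groups on tryptamine and other amines, and Gdf10, also called BMP3b, is a secreted ligand of the TGF-beta family. Around it in the same list stand Nbl1, a secreted inhibitor that binds BMP ligands, Ism1, the secreted protein isthmin, and Ptgfr, the receptor of prostaglandin F. Mgp, matrix Gla protein, keeps soft tissue from calcifying and was named with these genes as a marker of the class, but did not enter the rule.

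The promoters of the 2 genes that name the class are shown because members were chosen by the RNA of these genes. The sequences run 5′ to 3′ on the strand of the gene, from 250 bases before the start site to 50 after it (RefSeq, GRCm38.p6). Capitals mark every match, on either strand, to 4 short motifs: TATAAA for the TATA box, CCAAT for the CCAAT box, CAGCTG for one form of the E-box that helix-loop-helix factors bind, and CAGAC, the element that SMAD factors of the TGF-beta pathway bind. The last reads GTCTG on the other strand.
Inmt, chr6:55174941-55175240, minus strand: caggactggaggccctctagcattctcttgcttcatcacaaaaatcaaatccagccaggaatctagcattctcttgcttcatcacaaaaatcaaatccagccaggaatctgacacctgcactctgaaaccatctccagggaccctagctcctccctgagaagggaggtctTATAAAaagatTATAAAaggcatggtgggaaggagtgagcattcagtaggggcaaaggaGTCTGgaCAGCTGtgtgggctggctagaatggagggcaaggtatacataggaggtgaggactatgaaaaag
Gdf10, chr14:33923337-33923636, plus strand: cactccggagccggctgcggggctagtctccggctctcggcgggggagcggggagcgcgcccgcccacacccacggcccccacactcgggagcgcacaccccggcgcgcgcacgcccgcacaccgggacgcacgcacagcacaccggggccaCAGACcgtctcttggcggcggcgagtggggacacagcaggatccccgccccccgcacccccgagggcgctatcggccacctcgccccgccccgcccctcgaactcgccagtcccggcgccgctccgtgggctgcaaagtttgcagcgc
Of 32851 promoters of this length, 13.6% held the TATA motif, 37.4% the CCAAT motif, 16.3% the E-box motif and 49.6% the SMAD motif. Inmt held the TATA motif 2 times and the E-box and SMAD motifs 1 time each, and Gdf10 held the SMAD motif 1 time. The promoter of Nbl1 held 1 SMAD motif and that of Ptgfr none of the 4. RefSeq matched 4 of the 5 genes of the list. No motifs overlapped in the printed sequences, and a match describes the letters only. In GENCODE M21 on GRCm38, Inmt (ENSMUSG00000003477) lies on chromosome 6 from 55170626 to 55175043 on the minus strand, Gdf10 (ENSMUSG00000021943) on chromosome 14 from 33923587 to 33937983 on the plus strand, and Mgp (ENSMUSG00000030218) on chromosome 6 from 136872435 to 136875823 on the minus strand.

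Members were a larger share of the ND cells than of the HFD cells. In ND they made up 2.86% (2.43 to 3.34%) of the kept cells and 14.98% (12.9 to 17.3%) of the 1035 fibroblasts, and in HFD 1.68% (1.23 to 2.23%) of the kept cells and 10.3% (7.62 to 13.5%) of the 448 fibroblasts. The other fibroblasts were 452 Pi16-type cells in ND and 296 in HFD, 184 and 12 Fmod-type cells, 20 and 29 Cxcl14-high cells, and 224 and 65 that met no rule. Ranges in parentheses are exact 95% intervals, by Clopper-Pearson for a share of cells, Poisson for a level and the conditional binomial for a log2 ratio, and they cover counting error only. The members of a library share its preparation and are not replicates of a diet.

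Depth was similar for the members of both libraries, and mitochondrial RNA was not. The median member held 3546 UMIs in ND (741 to 10001) and 3728 in HFD (1543 to 7334), and in sum the members held 567599 and 178884 UMIs. The median mitochondrial share of a member was 15.7% in ND and 25.0% in HFD, and that of a Pi16-type cell 12.4% and 21.5%. Levels are given as CPM, that is, a gene's UMIs relative to all UMIs of the class. Of the kept cells of the libraries, 1 barcode occurred in both, and no barcode was a member in both.

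Many fibroblasts lay close to the border of the class. Of the ND cells with at least 2 genes of the list, 79 were tied with another list and 241 held more of another list, against 155 members. In HFD, 20 were tied, 70 held more of another list and 46 were members. A further 19 ND and 9 HFD cells held 1 gene of the list and none of the other lists, just outside the rule. Just inside it, 51 ND and 21 HFD members held 2 genes of the list, and 87 and 27 members led the nearer list by 1 gene. All 5 genes were found in 14 ND and 2 HFD members, and 17 ND and 10 HFD members held no gene of the other lists.

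Inmt and Gdf10 did not occur together in every member. Both were found in 76 ND and 31 HFD members, and neither in 10 and 1. The most frequent combination in ND was Inmt with Gdf10 and Nbl1, in 25 members, and in HFD Inmt with Gdf10 alone, in 11. Nbl1 with 1 other gene of the list was enough for 34 ND and 8 HFD members. Inmt was found in 76.1% (68.6 to 82.6%) of ND and 80.4% (66.1 to 90.6%) of HFD members, Gdf10 in 66.5% and 84.8%, Ism1 in 34.2% and 32.6%, Ptgfr in 44.5% and 19.6%, and Nbl1 in 85.8% and 65.2%. Outside the fibroblasts, where free RNA is one source of stray UMIs, Inmt was found in 1.10% of ND and 1.70% of HFD cells and Gdf10 in 1.26% and 1.44%, at a median of 3702 and 5537 UMIs. After each cell was thinned to 1000 UMIs, which left out 4 ND members, Inmt remained in 47.7% of ND and 45.7% of HFD members.

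Inmt, Ism1 and Ptgfr were higher in members than in both other classes in both libraries. The level of Inmt in ND was 799.9 (728 to 877) CPM in members, 83.8 in Pi16-type and 196 in Fmod-type cells, and in HFD 553 (449.8 to 674), 39.6 and 263 CPM. Gdf10 was at 595 (534 to 662) CPM in ND members, 111 in Pi16-type and 722 in Fmod-type cells, and at 805 (679 to 948), 88.6 and 164 in HFD. Fmod-type cells of ND thus held as much Gdf10 RNA as the members did or more, which goes against Gdf10 as a marker of this class alone. Ism1 was at 139 (110.2 to 173) CPM in ND members, with 20.9 in Pi16-type and 15.8 in Fmod-type cells, and at 95.03 (55.4 to 152) in HFD members, with 18.8 in Pi16-type and 0 in Fmod-type cells. Ptgfr was at 190.3 (156 to 229.7) CPM in ND members, against 16.8 and 99.9 in the other classes, and at 72.7 (38.7 to 124) in HFD members, against 6.04 and 10.96.

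The levels of Nbl1 and Mgp were highest in the class in ND but not in HFD. Nbl1 was at 1515 (1416 to 1619.9) CPM in ND members, 898 in Pi16-type and 308 in Fmod-type cells, and in HFD at 302 (227 to 394) in members and 436 in Pi16-type cells, the higher of these 2. Mgp was at 12805 (12512 to 13103) CPM in ND members, 1682 in Pi16-type and 7132 in Fmod-type cells. In HFD it was at 2359 (2139 to 2595) CPM in members, 508 in Pi16-type cells and 8519 in the 12 Fmod-type cells. The shares of cells with UMIs were closer. Nbl1 was found in 85.8% of ND members and 84.7% of ND Pi16-type cells, or 57.0% and 50.2% after thinning. In HFD it was found in 65.2% and 73.6%, or 13.0% and 32.1% after thinning. Mgp was found in 92.9% of ND members and 97.8% of ND Fmod-type cells.

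**Figure D1:**
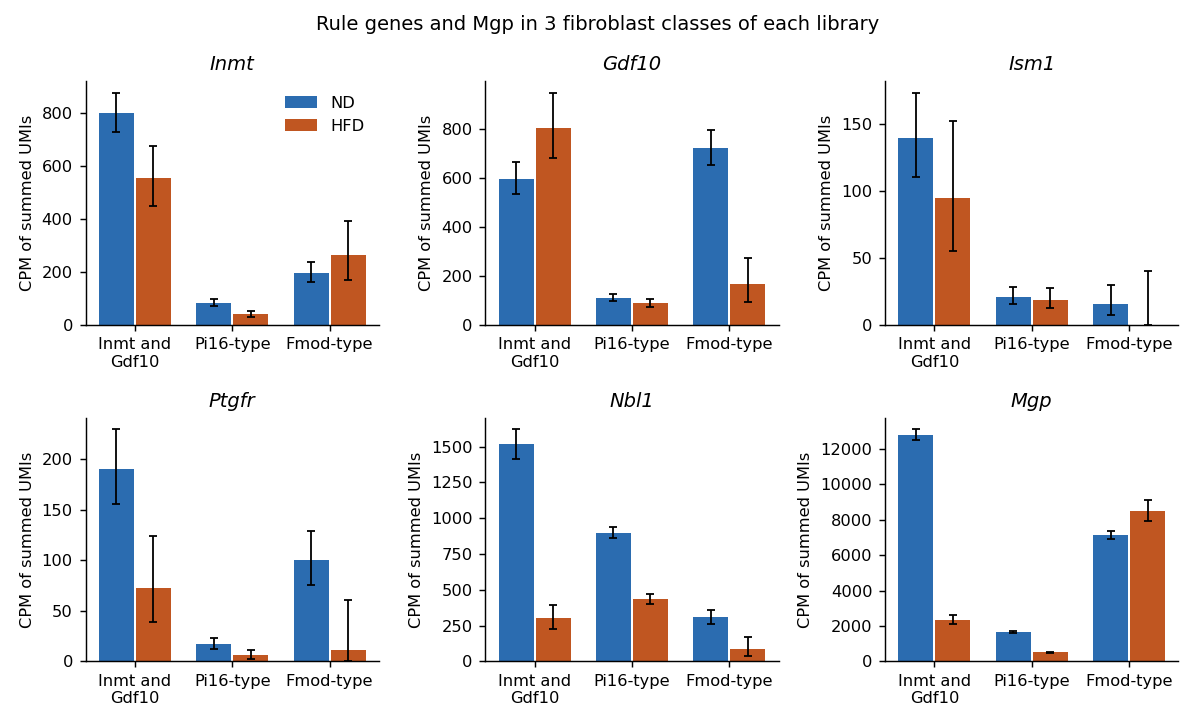
Level of the 5 genes of the rule and of Mgp, in CPM of summed UMIs, in 3 fibroblast classes of the ND (blue) and HFD (orange) libraries, with 1 library per bar and exact 95% Poisson intervals as error bars. Inmt is highest in the class in both libraries, Gdf10 is as high in ND Fmod-type cells, and Nbl1 and Mgp are lower in HFD members than in ND members.

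The class was then set against each of the other classes in all genes with at least 50 UMIs in the 2 classes together, as a description and without a test, since the same cells had been sorted by these counts. Against Pi16-type cells of ND, 293 of 6718 genes (4.36%) were at least 2-fold higher in members and 563 (8.38%) at least 2-fold lower. Against Fmod-type cells of ND, 136 of 3256 genes (4.18%) were higher and 155 (4.76%) lower. Against Pi16-type cells of HFD, 178 of 4347 genes (4.09%) were higher and 570 (13.1%) lower, and against the 12 Fmod-type cells of HFD, 119 of 679 (17.5%) and 125 (18.4%). With the genes of the rule left out, 41 genes were at least 2-fold higher in ND members than in both other classes and 11 at least 2-fold lower, of 3209. Of the 26 higher ones also measured against Pi16-type cells in HFD, 12 were again at least 2-fold higher and 19 higher at all, and 7 lay on the other side.

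The 12 genes that set ND members furthest above both other classes are given here with their levels in HFD. Sparcl1, a SPARC-like matrix glycoprotein, was at 710.01 (642 to 783) CPM in ND members, 96.99 in Pi16-type and 7.01 in Fmod-type cells, and at 475 in HFD members against 40.95 in Pi16-type cells. Apod, which encodes the lipid carrier apolipoprotein D, was at 1468 (1369.6 to 1571) CPM in ND members, 299.6 in Pi16-type and 73.6 in Fmod-type cells, and at 3237 (2978 to 3511) in HFD members against 381. For both genes the order of the classes was the same in HFD, with log2 ratios over Pi16-type cells of 3.54 (3.04 to 4.04) and 3.09 (2.92 to 3.26).

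Igfbp3, a secreted binding protein of insulin-like growth factors, was at 208 CPM in ND members against 58.3 and 28.04 in Pi16-type and Fmod-type cells, and at 386 against 72.5 in Pi16-type cells of HFD. The membrane glycoprotein gene Gpm6b was at 176 against 65.1 and 54.3 CPM in ND and 145 against 32.9 in HFD, and Tmem176b, a transmembrane protein gene, at 298 against 81.1 and 63.1 in ND and 341 against 87.3 in HFD. These 3 genes, too, lay on the same side in HFD, with log2 ratios over Pi16-type cells of 2.41, 2.14 and 1.97. Thbs1, which encodes the matricellular protein thrombospondin-1, was at 495 CPM in ND members against 138 and 82.4, and at 319 in HFD members, between the 105 CPM of Pi16-type and the 3717 CPM of the 12 Fmod-type cells.

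Another 5 of these genes were not 2-fold higher than in Pi16-type cells in HFD. The water channel gene Aqp1 was at 403 CPM in ND members, 138 in Pi16-type and 50.8 in Fmod-type cells, and at 162 and 98.02 in HFD members and Pi16-type cells. C4b, a complement component, was at 1025 (944 to 1112) CPM in ND members and 443 in Pi16-type cells, and at 1224 (1067 to 1398) and 1223 in HFD. The HFD value of Pi16-type cells reached that of the members. Csrp1, a LIM protein gene, was at 227 and 70.1 CPM in ND and at 44.7 and 61.1 in HFD. Myoc (myocilin) was found in 30 ND and 2 HFD members, at 372 and 27.95 CPM, and Spon2 (spondin) in 33 and 2, at 197 and 16.8. Col23a1, a transmembrane collagen gene, was at 146 CPM in ND members, 6.83 in Pi16-type and 12.3 in Fmod-type cells, and had 3 UMIs in HFD members.

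Among the 12 genes furthest below both other classes were Col12a1 and Col14a1. Col12a1 was at 38.8 (24.3 to 58.7) CPM in ND members, 347 in Pi16-type and 199.8 in Fmod-type cells, and Col14a1 at 661, 1643 and 1262. Both encode collagens that sit on the surface of fibrils. Ackr3, a scavenging receptor of Cxcl12, was at 222, 1162 and 531 CPM, and Edn1 (endothelin) at 7.05, 117 and 40.3. In HFD these 4 genes lay on the same side of Pi16-type cells, with log2 ratios of -2.70, -1.23, -3.06 and -2.39.

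Bmp3, the ligand closest to Gdf10 in sequence, had 1 UMI in ND members and none in HFD members, against 45.1 and 91.98 CPM in Pi16-type cells. With 3 UMIs over the class in place of 0, Bmp3 was at least 5.48-fold lower in HFD members than in HFD Pi16-type cells. Sfrp4, a secreted Wnt inhibitor, was the exception among these genes, at 109 CPM in ND members against 385 and 473 in the other classes, but at 609 in HFD members against 496 in Pi16-type cells. Its RNA lay in 13 ND and 8 HFD members, and 1 HFD cell held 41.3% of its HFD UMIs. The other 5 with UMIs to compare in HFD, Vgll3, Ntn4, Efna5, Thy1 and Dbn1, had log2 ratios over Pi16-type cells of -1.89, -1.42, -2.07, -2.20 and -3.68 in ND and of -2.48, -2.79, -1.25, -1.74 and -2.19 in HFD. Tnfrsf11b, a decoy receptor gene, was at 12.3, 42.3 and 126 CPM in ND members, Pi16-type and Fmod-type cells.

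**Figure D2:**
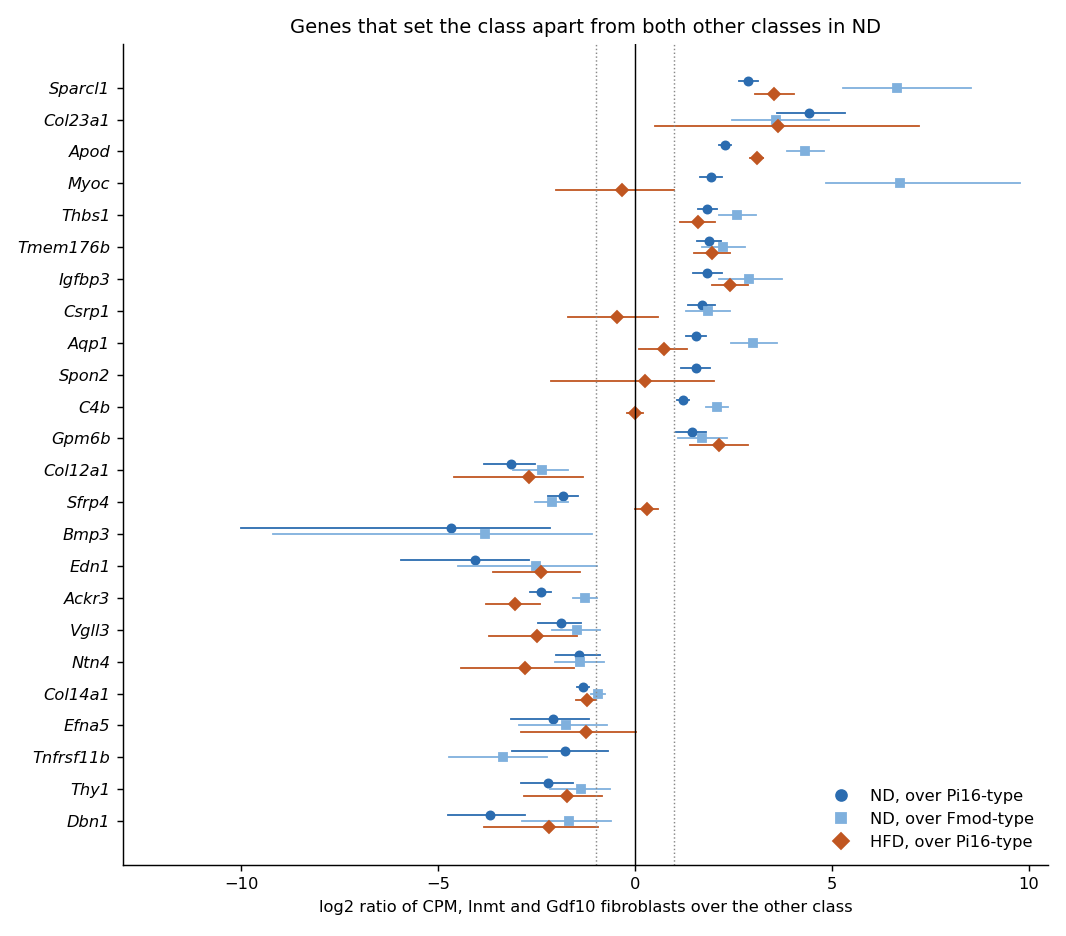
Log2 ratio of CPM of Inmt and Gdf10 fibroblasts over Pi16-type cells of ND (dark blue circles), over Fmod-type cells of ND (light blue squares) and over Pi16-type cells of HFD (orange diamonds), for the 12 genes furthest above and the 12 furthest below both classes in ND. Bars are exact 95% intervals of counting error, dotted lines mark 2-fold, and a ratio with a count of 0 on one side is not drawn. C4b, Csrp1, Myoc and Spon2 lie near 0 in HFD, and Sfrp4 lies above 0.

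Genes of the BMP and TGF-beta pathway lay on both sides of their level in Pi16-type cells of ND. Over all genes tested, the median log2 ratio was -0.11. Of 10 ligands, 3 were at least 2-fold higher in members and 3 at least 2-fold lower, with a median of -0.54. Of 9 receptors 1 was higher and none lower, with a median of -0.06. Of 16 inhibitors 2 were higher and 1 lower, with a median of 0.46, and of 7 target genes 1 was higher and none lower, with a median of 0.71. Against Fmod-type cells of ND the targets had a median of -0.29, with none higher and 1 lower of 7. The higher ligand and inhibitor counts include Gdf10 and Ism1, which the rule chose. The lower inhibitor was Fstl1, a follistatin-like protein gene, at 1048 CPM in members and 2879 in Pi16-type cells. Among the targets, Id2 was at 409 and 138 CPM and Id3 at 1136 and 578, both inhibitors of helix-loop-helix factors. The prostaglandin genes had a median log2 ratio of -0.33, with 1 gene higher, Ptgfr of the rule, and 1 lower of 7.

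A list of genes known from regulatory preadipocytes of fat, which are cells that hold back adipocyte formation and carry the surface protein F3, was higher in members than in Pi16-type cells of both libraries. It was not higher than in Fmod-type cells of ND. The list shares Gdf10 with the rule and Mgp with the markers. Of its 8 genes tested in ND, 5 were at least 2-fold above Pi16-type cells and none below, with a median of 1.81, and in HFD 6 of 7 were above, with a median of 2.21. Against Fmod-type cells of ND, 1 of 8 was above and 2 below, with a median of -0.31. Against the 12 Fmod-type cells of HFD, 3 of 6 were above and 1 below, with a median of 0.81. Fmo2, a flavin monooxygenase gene, was at 687 CPM in ND members and 200.4 in Pi16-type cells, and Clec11a, a secreted growth factor gene, at 130.4 and 35.1. F3 itself, the tissue factor gene, was at 211 in members, 137 in Pi16-type and 1421 in Fmod-type cells of ND, and at 492, 87.9 and 351 in HFD. F3 was thus highest in Fmod-type cells in ND and in members in HFD.

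Of the basement membrane genes, 7 of 21 were at least 2-fold higher in members than in Pi16-type cells of ND and 2 lower, with a median of 0.57. Col15a1, a collagen of the basement membrane zone, was at 476 CPM in ND members and 108 in Pi16-type cells, and at 447 and 49.7 in HFD. Smoc2, a calcium-binding matrix protein gene, was at 677 and 288 in ND and 1202 and 211 in HFD. Nid1, which encodes the linker protein nidogen, went the other way in ND, at 543 in members and 1219 in Pi16-type cells. Against Fmod-type cells of ND the same group was 3 higher and 8 lower of 20, so in ND its direction depended on the class it was set against. In HFD it was 6 higher and 1 lower of 18 against Pi16-type cells. Against the 12 Fmod-type cells of HFD it was 4 higher and 1 lower of 10.

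Collagens of other kinds were 6 higher and 3 lower of 16, with a median of 0.63 against Pi16-type cells of ND, and 2 higher and 4 lower of 15 against Fmod-type cells, with a median of -0.46. Col6a3, of the beaded-filament collagens, was at 622 CPM in members and 226 in Pi16-type cells of ND, and at 531 and 232 in HFD. Col1a1, a gene of the fibroblast gate, was at 3309 and 1349 in ND, with log2 ratios of 1.29 in ND and 0.11 in HFD. Of the small leucine-rich proteoglycans, which bind collagen fibrils, 1 of 10 was higher and none lower than in Pi16-type cells of ND. Against Fmod-type cells none was higher and 4 were lower. Fmod is of this family and helped to define Fmod-type cells, so the rule itself favoured a lower level of Fmod in members. Dcn (decorin), a gene of the fibroblast gate, was at 10399.9 and 6981 CPM in ND and 9878 and 5954 in HFD. Lum (lumican), also of the gate, was at 1195 and 677, and 1509 and 463.

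Elastic fibre genes went in both directions, with 5 of 19 at least 2-fold higher than in Pi16-type cells of ND, 5 lower and a median of -0.04. Against Fmod-type cells 1 of 17 was higher and 4 were lower. Higher than in Pi16-type cells were Eln, the elastin gene, at 2188 CPM in members and 714 in Pi16-type cells, Mfap4, a fibre-associated glycoprotein gene, at 761 and 217, and the crosslinking enzyme gene Lox at 340.03 and 94.7, beside Mgp and Emilin1. Lower were Fbn1, the main microfibril gene, at 347 and 1749.5, Mfap5, another microfibril gene, at 854 and 2605, and Emilin2, Fbln2 and Efemp1. So members held more elastin RNA and less RNA of the microfibril genes Fbn1 and Mfap5 than Pi16-type cells of the same library.

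Enzymes of methyl transfer and foreign compounds, the group to which Inmt belongs, were 4 higher and none lower of 18 against Pi16-type cells of ND, with a median of 0.55. Against Fmod-type cells 5 were higher and 1 lower of 16, with a median of -0.16. Both counts of higher genes include Inmt, which the rule chose. Fmo1, a flavin monooxygenase gene, was at 179.7 CPM in ND members and 56.9 in Pi16-type cells, and at 139.8 and 26.2 in HFD. Cyp2e1, a cytochrome gene, was at 56.4 and 5.01 in ND, and had 3 UMIs in HFD members. In other lists the directions against Pi16-type cells were mixed, with 5 chemokine and cytokine genes higher and 5 lower of 15, 4 and 4 of 18 Wnt genes, and 3 and 1 of 9 genes of insulin-like growth factors. The last 1 was Igfbp5, at 1427 CPM in members and 12611 in Pi16-type cells. Fn1, the fibronectin gene, was at 492 and 3212 CPM.

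Within the class, Mgp varied widely from cell to cell. In ND members Mgp ran from 0 to 54458 CPM per cell with a median of 9677, and in HFD members from 0 to 11155 with a median of 956. The ranges overlapped. Of all 201 members, 94 ND and 6 HFD members lay above the common median of 6674 CPM, and 61 ND and 40 HFD members at or below it. This split was made after the values of Mgp had been seen.

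Several genes named elsewhere here stood apart between ND members above the Mgp median and those at or below it. The 2 genes furthest toward the members at or below it were the haemoglobin genes Hba-a1, at 22.9 and 445 CPM, and Hbb-bs, at 62.9 and 730.1 CPM. For each of them, 1 ND member at or below the median held most of the ND UMIs, 86.7% for Hba-a1 and 77.9% for Hbb-bs. Lpl, the lipoprotein lipase gene, was at 192 CPM in ND members above the Mgp median and 1153 in those at or below it. Ccl11, the eosinophil chemokine eotaxin, was at 62.9 and 445, and Smoc2 at 297 and 1286. The metal reductase gene Steap4, which lies outside the rule for named genes and was chosen after its values were seen, was at 57.2 and 377 CPM. On the other side, Nbl1 was at 2058 and 643, Aqp1 at 603 and 82.7, and Eln at 2756 and 1277.

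Inmt and Gdf10 differed less between these groups. Inmt was at 900.4 CPM in ND members above the Mgp median and 638 in those at or below it, and Gdf10 at 472 and 794. In the 40 HFD members at or below the median, Lpl was at 2714 CPM, Ccl11 at 1194 and Eln at 201. The 6 HFD members above it had Lpl at 1879, Ccl11 at 914 and Eln at 102 CPM. In Lpl, Ccl11 and Eln, the 6 HFD members above the median were thus nearer the other HFD members than the ND members above it. These levels rest on 37, 18 and 2 UMIs, and other genes went the other way. Dkk3 and S100a4, chosen after their values were seen, were both at 355 CPM in these 6 members. Dkk3 was at 56.5 in the other HFD members and 397 in the ND members above the median, and S100a4 at 87.9 and 420.

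**Figure D3:**
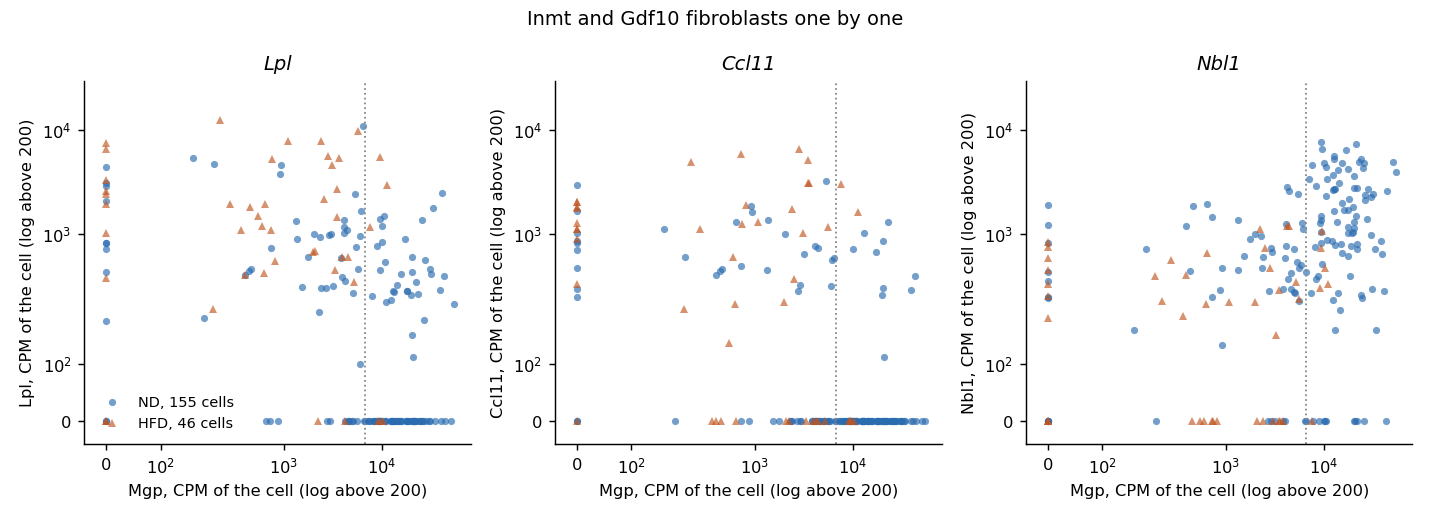
Lpl, Ccl11 and Nbl1 against Mgp in each of 155 ND (blue circles) and 46 HFD (orange triangles) members, both axes in CPM of the cell and logarithmic above 200, with the common Mgp median as a dotted line. Members without a UMI lie on the 0 line, HFD members mostly lie left of the median, and ND members with Lpl and Ccl11 are denser there too.

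The diets were then compared within the class, over 2081 genes with at least 50 UMIs in the members of both libraries together. Of these, 75 (3.6%) were at least 2-fold higher in HFD and 238 (11.4%) at least 2-fold lower, with a median log2 ratio of -0.21. Mitochondrial RNA took more of the HFD UMIs, and when the genes of mitochondria, haemoglobin and ribosomes were taken out of the totals the median ratio was -0.07. Values below are the CPM of ND and then HFD members.

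Several matrix genes that stood high in ND members were lower in HFD members. Eln was at 2188 (2068 to 2313) CPM in ND and 190.1 (132 to 266) in HFD, a log2 ratio of -3.53 (-4.06 to -3.03), with UMIs in 115 of 155 and 15 of 46 members. With cells thinned before the rule the ratio of Eln was -1.81. Mgp had a log2 ratio of -2.44 (-2.59 to -2.30). In Pi16-type cells the ratios of Eln and Mgp were -1.65 and -1.73, lower in HFD as well, and in cells outside the fibroblasts 1.06 and 0.72, higher in HFD.

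Timp3, a tissue inhibitor of metalloproteinases, was at 2382 CPM in ND and 643 in HFD, a log2 ratio of -1.89 (-2.18 to -1.61). The adhesive matricellular genes Ctgf and Cyr61 were at 1129 (1044 to 1220.2) and 196 (136 to 272) CPM and at 372 and 67.1 CPM, with ratios of -2.53 and -2.47. In 1 HFD cell lay 45.7% of the HFD UMIs of Ctgf. In Pi16-type cells the ratios of Timp3, Ctgf and Cyr61 were -1.37, -1.30 and -1.11. Myoc had a ratio of -3.73.

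Genes of the TGF-beta and BMP pathway were among those with the lowest ratios of HFD over ND. Tgfb3, a TGF-beta ligand, was at 203 CPM in ND and 22.4 in HFD, with UMIs in 68 and 2 members, and thinned cells gave it a ratio of -1.78 in place of -3.18. The inhibitors Nbl1, a gene of the rule, and Twsg1, which bind BMP ligands outside the cell, had log2 ratios of -2.33 (-2.75 to -1.93) and -2.57 (-3.65 to -1.66). Twsg1 was at 331 and 55.9 CPM, and in Pi16-type cells its ratio was -0.26. The inhibitors Fst (follistatin) and Bmper stood on the other side, Fst at 146 and 363 CPM with a ratio of 1.31 (0.82 to 1.80) and Bmper at 28.2 and 139.8, in 14 and 17 members.

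Gdf10, which the rule used, was at 595 and 805 CPM and Inmt at 799.9 and 553. Of the 5 target genes tested, 4 were at least 2-fold lower in HFD and none higher, with a median of -1.22. Id3 was at 1136 and 486 CPM, Id2 at 409 and 196 and Id1 at 130.4 and 55.9, beside Ctgf. Of the ligands 1 of 4 was lower and none higher, of the receptors 1 of 6 was higher, and of the inhibitors 1 was higher and 2 lower of 9, or 1 lower of 8 without Nbl1, which the rule used. Counts of the prostaglandin list were 3 lower and none higher of 4, namely Ptgfr, which the rule used, Ptgs2, an inducible enzyme of prostaglandin synthesis, and Ptgis, the prostacyclin synthase gene. Ptgis was at 190.3 and 95.03 CPM and Ptgs2 at 86.3 and 33.5, in 31 and 3 members.

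Chemokine and cytokine genes lay higher in HFD members. Of 10 tested, 7 were at least 2-fold higher and 1 lower, with a median of 1.53. Ccl11 was at 209.7 (174 to 251) CPM in ND and 1163 (1010.1 to 1332) in HFD, a log2 ratio of 2.47 (2.14 to 2.81), and 0.75 in Pi16-type cells. UMIs of Ccl11 were found in 25.8% (19.1 to 33.4%) of ND and 65.2% (49.8 to 78.6%) of HFD members, in 13.9% and 47.8% after thinning, and in 1.12% and 3.27% of cells outside the fibroblasts. Pi16-type cells held it in 36.9% of ND and 62.5% of HFD cells, and in 16.4% and 33.8% after thinning. Its detection was thus not particular to the members.

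Cxcl12, a chemokine that holds leukocytes and progenitors in place, was at 599 (537 to 666) and 1627 (1445 to 1825) CPM, with a log2 ratio of 1.44 (1.21 to 1.67) in members and 1.47 in Pi16-type cells. Cxcl1, which attracts neutrophils, was at 179.7 and 553 in 36 and 10 members. The cytokine gene Il6 was at 45.8 and 157 CPM in 13 and 6 members, and Csf1, the macrophage growth factor, at 81.04 and 190.1 in 37 and 20. Il33, an alarmin, was close in both libraries, at 215 and 224 CPM. Cxcl13, which attracts B cells, was at 35.2 and 659.6 CPM, but in 4 ND and 5 HFD members, with 65.3% of its HFD UMIs in 1 cell.

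Lifr, Osmr, Serpina3n, Steap4 and Cp had higher levels in HFD as well. Lifr and Osmr, receptor subunits of cytokines of the Il6 family, were at 72.2 and 313 CPM and at 119.8 and 335, in 29 and 24 and in 51 and 30 members. In their list of growth factors and receptors, 4 of 12 genes were higher and 1 lower, with a median of 0.51. The protease inhibitor gene Serpina3n was at 74.00 and 464 CPM, with a log2 ratio of 2.65 in members, 2.36 in Pi16-type cells and 2.58 outside the fibroblasts. Steap4 was at 179.7 and 749 CPM and Cp, the copper carrier ceruloplasmin, at 209.7 and 861. Cp, too, was chosen after its values were seen.

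The complement list was 2 higher and 1 lower of 9, with a median of 0.34. C3 was at 3081 and 6295 CPM, a log2 ratio of 1.03 (0.92 to 1.14), and 0.63 in Pi16-type cells. Fgf10, a growth factor that acts on epithelium, was at 70.5 and 190.1 CPM.

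Lipid and preadipocyte genes were 6 higher and 1 lower of 18 in HFD members, with a median of 0.30. Lpl was at 560.3 (500.4 to 625) CPM in ND and 2622 (2389.9 to 2870.2) in HFD, a log2 ratio of 2.23 (2.02 to 2.44), against 0.60 in Pi16-type cells and 0.98 outside the fibroblasts. It was found in 24.5% of ND and 65.2% of HFD members after thinning, and in 27.9% and 45.9% of cells outside the fibroblasts. Apod was at 1468 and 3237 CPM, a ratio of 1.14 (0.99 to 1.30), and Gpx3, a secreted glutathione peroxidase, at 886 and 2052, a ratio of 1.21 (1.01 to 1.41) against 0.03 in Pi16-type cells. Ebf1, a transcription factor of preadipocytes, was at 344 and 766 CPM, and Fabp4, a fatty acid carrier, at 604 and 1107.

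Cxcl14-high fibroblasts, which the rule set aside, held some of these genes at high levels in both libraries. There Lpl was at 2492 CPM in ND and 3783 in HFD, Ccl11 at 1475 and 1504, and Apod at 2701 and 6727. They were 20 of 1035 fibroblasts in ND and 29 of 448 in HFD.

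The basement membrane group was 2 higher and 4 lower of 15 in HFD members. The higher genes were the partner chains Col4a1, at 359 and 917 CPM, and Col4a2, at 160.3 and 402. Their ratios were 1.35 (1.05 to 1.65) and 1.33 (0.86 to 1.79). Of other collagens none was higher and 3 were lower of 13, and of elastic fibre genes none was higher and 5 were lower of 16, among them Mfap4 at 761 and 246 CPM. Aspn (asporin), a small proteoglycan gene, was at 294 and 72.7. Of 14 enzymes of methyl transfer and foreign compounds, 2 were higher and none lower, Gpx3 and the cytochrome gene Cyp1b1, at 148 and 519.9 CPM in 47 and 35 members.

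Immediate early and heat shock genes were lower in HFD members, with 14 of 28 at least 2-fold lower, none higher and a median of -1.01. Fos was at 2489 and 1179.5 CPM, Jun at 1011 and 358, and Dusp1 at 1226 and 531. The log2 ratio of Fos was -1.08 (-1.29 to -0.87) in members, -0.26 in Pi16-type cells and -0.05 outside the fibroblasts.

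Of 10 myofibroblast genes 5 were lower in HFD, namely the contractile genes Acta2, Tagln, Myl9, Tpm1 and Tpm2, and 3 were higher, Fn1, Timp1 and Comp. In ND these contractile genes rested in part on 2 members. Myl9, a myosin light chain gene, was at 204 and 27.95 CPM and Tpm2, a tropomyosin gene, at 122 and 16.8, in 34 and 3 members. With cells thinned to 1000 UMIs before the rule the log2 ratio of Myl9 was -0.33 in place of -2.87, no longer 2-fold. Acta2, smooth muscle actin, had 196 UMIs in 14 ND members and none in HFD members, at least 20.6-fold lower with 3 UMIs in place of 0. Of these, 153 UMIs (78.1%) lay in 2 ND members, which also held 72.9% of the Tagln and 38.8% of the Myl9 UMIs. Without those 2 members, an alternative chosen after the values were seen, Acta2 was at least 4.58-fold lower, Myl9 had a ratio of -2.18, and 3 of 8 genes tested were lower and 3 higher. Fn1 was at 492 and 1012 CPM. The 6 smooth muscle markers summed to 826 CPM in ND members with all 6 found, and to 44.7 CPM in HFD members with 2 found and Acta2, Tagln, Myh11 and Cnn1 at 0. Without the 2 members they summed to 274 CPM in ND members. In Pi16-type cells they summed to 70.1 and 405 CPM. Their part in the result was not tested.

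**Figure D4:**
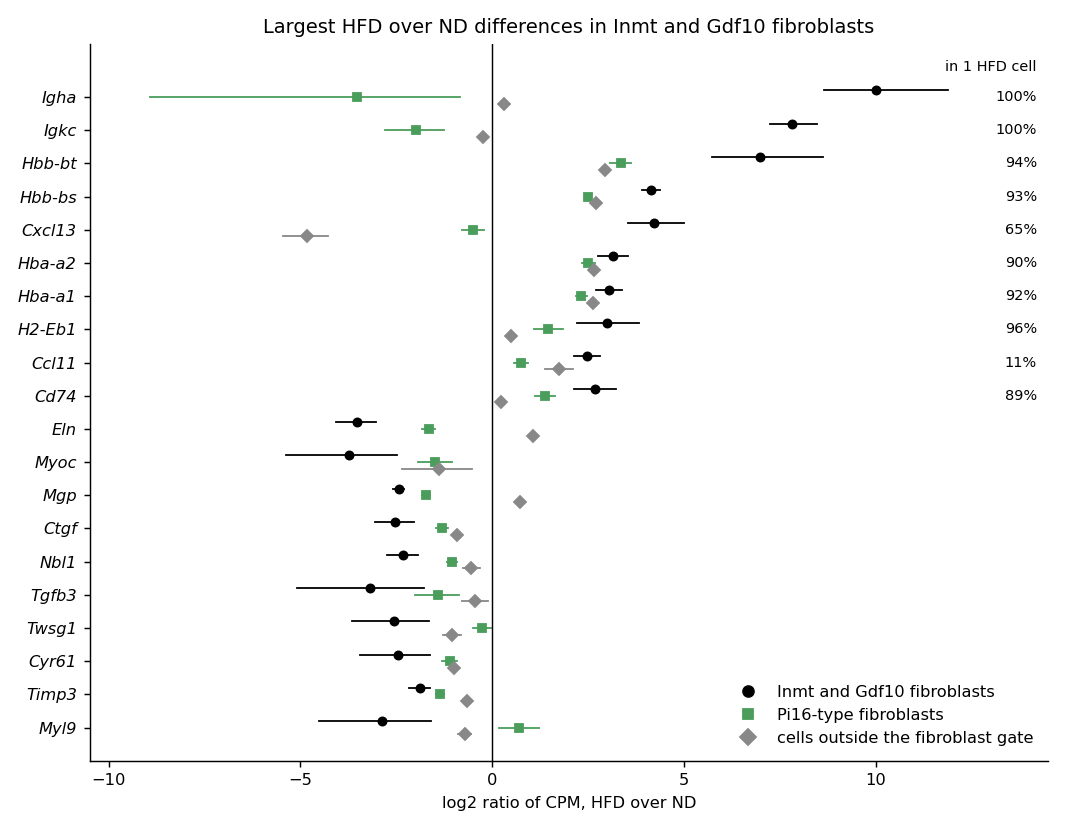
Log2 ratio of CPM, HFD over ND, for the 10 genes furthest above and the 10 furthest below 0 in Inmt and Gdf10 fibroblasts (black circles), with the same ratio in Pi16-type fibroblasts (green squares) and in cells outside the fibroblast gate (grey diamonds). Bars are exact 95% intervals of counting error, and the percentages give the share of the HFD UMIs held by 1 cell, which is 11% for Ccl11 and 65% or more for the other 9 higher genes.

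The genes with the largest ratios in favour of HFD mostly rested on single cells. Igha and Igkc, immunoglobulin genes, were at 7.05 and 7278 CPM and at 42.3 and 9475 CPM, and 1 HFD barcode held 99.9% and 99.6% of the HFD UMIs. That barcode had 7334 UMIs, of which 1689 were Igkc, and it held no Ptprc. The haemoglobin gene Hbb-bs was at 319 and 5601 CPM, with 92.9% in 1 cell, and a log2 ratio of 2.48 in Pi16-type cells. Cd74 and H2-Eb1, genes of antigen presentation, had 88.6% and 96.0% of their HFD UMIs in 1 cell. Ccl11 was the 1 gene of these 10 with less than 65% in 1 cell.

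Leaving out the cell with the most UMIs of a gene in each library, an alternative chosen after the values were seen, took the immunoglobulin and antigen genes off the list of 2-fold higher genes. The log2 ratio of Igha was then 0.08, of Igkc 0.44, of H2-Eb1 -0.92 and of Cd74 0.34. For Ccl11 it was 2.49 (2.14 to 2.85), for Lpl 2.21 (1.98 to 2.43), for Lifr 2.13 and for Serpina3n 2.47. For Eln it was -3.82, for Mgp -2.53, for Nbl1 -2.41 and for Ctgf -3.30. For Cxcl13 it was 3.70 (2.68 to 4.86), and for Hbb-bs 2.49 (1.91 to 3.09). These ratios stayed past 2-fold and on the same side.

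Some genes had 3 or fewer UMIs in 1 library. Beside Acta2, those with the most UMIs in ND were Scgb1a1, an airway secretory gene, with 160 UMIs against 0, Spon2 with 112 against 3 and the immediate early gene Nr4a2 with 111 against 3. Those with the most in HFD were Jchain with 311 UMIs in 1 cell against 1, the acute-phase gene Saa3 with 57 UMIs in 3 cells against 0, Lcn2 with 14 against 1 and the clock gene Nr1d1 with 13 against 3. In 1 cell lay 46.9% of the ND UMIs of Scgb1a1, 12.5% of those of Spon2 and 8.11% of those of Nr4a2, and 66.7%, 71.4% and 15.4% of the HFD UMIs of Saa3, Lcn2 and Nr1d1.

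**Figure D5:**
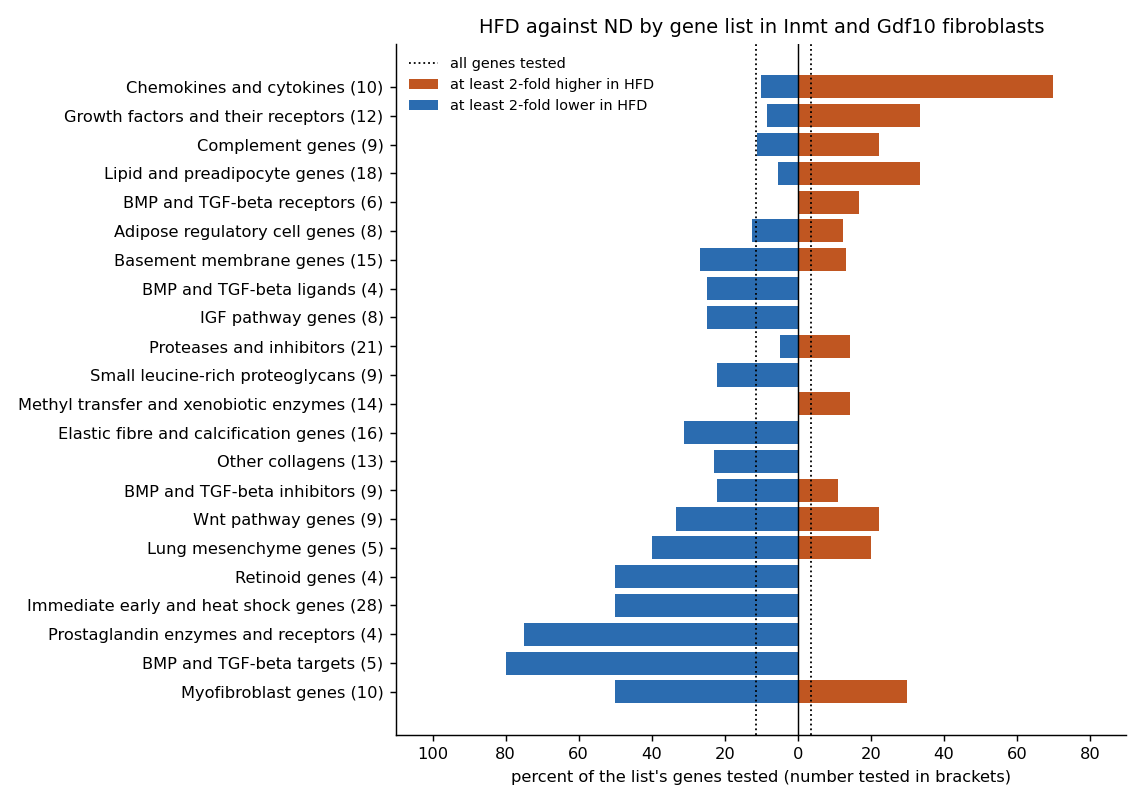
Percent of the genes tested in each list that were at least 2-fold higher (orange, right) or lower (blue, left) in HFD than in ND Inmt and Gdf10 fibroblasts, with the number tested in brackets and the percent over all genes tested as dotted lines. Chemokines and cytokines reach furthest to the right, with 7 of 10, and BMP and TGF-beta targets furthest to the left, with 4 of 5.

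The members also differed between libraries in RNA of other cell types, whose part in these results was not tested. Endothelial markers, all 7 found in each library, summed to 218 CPM in ND and 324 in HFD members, and macrophage markers to 89.9 and 313 CPM. Erythroid markers summed to 650.1 and 9447 CPM in members and to 1263 and 7214 in Pi16-type cells. Airway club cell markers summed to 372 CPM in ND and 0 in HFD members, and to 2260 CPM in Pi16-type cells of ND. T cell and Schwann cell markers were at 0 in the members of both libraries. Pericyte markers summed to 345 and 604 CPM, mostly from Abcc9, a channel gene, with Higd1b at 0. In Pi16-type cells they summed to 131 and 101 CPM. At least 2 pericyte markers were found in 6.45% of ND and 28.3% of HFD members. The shares were 3.98% and 2.70% in Pi16-type cells, and 20.7% and 33.3% in Fmod-type cells.

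When the members at or below the common Mgp median were compared alone, 61 from ND and 40 from HFD, the named genes kept their side. Of their ratios, 12 left the interval found with all members and 8 stayed within it. This comparison was added after the values were seen. Ccl11 had a log2 ratio of 1.42, Eln of -2.67, Mgp of -0.85, Nbl1 of -1.19, Ctgf of -1.96, Twsg1 of -2.38 and Timp3 of -1.34 there. The split itself brings the ratio of Mgp nearer 0, and Ccl11 and Nbl1 had been seen to go with Mgp, so their ratios here are a description.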

How the data were processed

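Cells of the aortic arch of Apoe-/- mice were measured by 10x single-cell RNA sequencing in 1 library per diet. Per the file headers, the values are UMI counts from Cell Ranger 3.0.1, which the authors deposited raw, without normalization, for 31053 genes and 10234 ND and 14225 HFD barcodes. The sources used here do not give the genome build. The study's own limits were applied, 200 genes or more, 200 UMIs or more and no more than 30% mitochondrial UMIs, followed by the rule on genes. Kept cells had a median of 3732.5 UMIs in ND and 5336 in HFD. Scrublet (scanpy 1.11.5) marked as doublets 0 ND cells and 1 HFD cell by its own threshold. As an alternative, the cells in the top 6% of its scores were left out, among them 5 ND and 3 HFD members.

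UMIs were summed per class and library, and CPM took the summed UMIs of that class as the total. With 1 library per diet no test was possible. Genes with at least 50 UMIs in both groups together were compared, and called at 2-fold. A fold against 0 UMIs is given as a bound, with 3 UMIs over the class in their place. The steps were tested on simulated counts with known ratios. Those counts were independent Poisson sums, without the concentration of UMIs in single cells seen here. The simulation thus checked the calculation and not the calls on these data.

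The named genes are those of the rule and of the gene lists, the 12 genes furthest above and below the closer of the other classes in ND with at least 100 UMIs, and the 10 highest and lowest HFD over ND by the bound of the interval, with genes of 3 or fewer UMIs in 1 library apart. The members, lists and rules were chosen with earlier results of these data known. Alternatives changed the mitochondrial limit, the rule, the depth, doublets, scaling, the minimum of UMIs, the fold and the cells compared. The software was pandas 2.3.3, scipy 1.17.1, numpy 2.4.6 and matplotlib 3.10.9 under Python 3.11.15.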

Additional observations from a re-analysis of the deposited data

Results flagged for a closer look

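For 7 genes the log2 ratio of Inmt and Gdf10 fibroblasts over Pi16-type fibroblasts had opposite signs in the libraries, and the difference between the libraries was not tested. In ND and HFD the ratios were 0.75 and -0.53 for Nbl1, 0.70 and -1.60 for Twsg1 and 0.71 and -0.51 for Ctgf, all above 0 in ND. They were -1.998 and 2.72 for Cxcl13, -2.76 and 0.87 for Hbb-bt, -1.30 and 0.35 for Hbb-bs and -0.39 and 0.32 for Hba-a1, all below 0 in ND, and single cells held most of the HFD UMIs of these 4 genes. Genes outside this set, among them Csrp1 and Sfrp4, also lay on opposite sides of Pi16-type cells in the libraries.

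Barcodes above the limit of 30% mitochondrial UMIs, which no comparison used, also held cells of this kind. Of 2299 such ND barcodes 20 met the rest of the rule, and of 7215 HFD barcodes 43, nearly as many as the 46 HFD members. The same held for HFD fibroblasts of all classes. The fibroblast gate passed 249 of these ND and 434 of these HFD barcodes, against 1035 and 448 kept fibroblasts. The barcodes that met the rest of the rule held a median of 1120 UMIs in ND and 2702 in HFD, with a median mitochondrial share of 57.3% and 37.1%. In CPM of the UMIs outside the mitochondrial genes, Lpl was at 240.3 in ND and 2492 in HFD (664 and 3414 in members), Ccl11 at 240.3 and 1129 (248 and 1514) and Eln at 1442 and 317 (2592 and 248). Mgp was at 5526 and 6346 in these barcodes, against 15171 and 3072 in members.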

How the results depend on the processing

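No paired analysis was possible because there was 1 library per diet and no result came from a test. Of 120 counts of cells and genes under the alternatives, 81 stayed within 1.5 times the value reported and 39 did not, and of 448 ratios of named genes 355 stayed within their interval, 85 left it and 8 changed sign, while a further 12 had a count of 0 on one side and gave no value. Scaling by the median of ratios left every value compared within these limits. The HFD class had 9 members at a limit of 20% mitochondrial UMIs, 25 with at least 3 genes of the list and 24 when cells were thinned before the rule. Genes at least 2-fold higher and lower numbered as follows. Thinned cells gave 66 and 158 against Pi16-type and 30 and 63 against Fmod-type cells of ND, 42 and 107 against Pi16-type cells of HFD, and 9 and 39 between diets. A minimum of 20 UMIs gave 565 and 1029, 417 and 343, 508 and 1365, and 230 and 737 in the same order, and one of 200 UMIs gave 80 and 166, 30 and 59, 46 and 129, and 26 and 40. A limit of 1.5-fold gave 677 and 1305, 351 and 411, 478 and 1107, and 173 and 518. More or fewer genes are tested in these by construction, and at 1.5-fold more pass. Against all other fibroblasts of ND, 189 genes were higher in place of the 293 against Pi16-type cells and 582 lower in place of the 155 against Fmod-type cells. Members at or below the Mgp median gave 39 and 76 between diets. HFD over ND changed sign for Hbb-bs (-0.38), Hba-a2 (-1.68) and Hba-a1 (-1.54) at 20% mitochondrial UMIs, Igkc (-1.36) with 3 genes of the list, Cd74 (-0.87) in thinned cells, H2-Eb1 (-0.90) without likely doublets, and Igha (-0.27) and Igkc (-0.27) without the Igkc barcode, and beyond the cells left out the cause was not tested. Ratios of HFD over ND that were under 2-fold without a change of sign were those of Myl9 (-0.33) in thinned cells, Cd74 at 20% mitochondrial UMIs (0.87) and without likely doublets (0.36), Igha (0.19) and Igkc (0.14) with no limit on Cxcl14, and Mgp (-0.85) in members at or below its median. The 46 HFD members limit every HFD value, and mice, diet and library cannot be separated at any depth.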

Other observations

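Some ND members held RNA of Foxf1 and Tbx4, transcription factors known from lung mesenchyme, and of the matrix gene Npnt, all chosen for description after the values were seen. At least 1 of the 3 was found in 32 of 155 ND members (20.6%), in 3 of 46 HFD members (6.52%), in 33 of 452 Pi16-type cells of ND (7.30%), in 16 of 296 of HFD (5.41%), in 1 of 184 Fmod-type cells of ND and in 3 of 12 of HFD (25.0%). In the list of lung mesenchyme genes, 5 of 9 were at least 2-fold higher in ND members than in Pi16-type cells and 2 lower, with a median log2 ratio of 1.04 (4.36% and 8.38% over all genes). Against Fmod-type cells of ND 1 of 5 was higher and 2 lower, with a median of -0.43. Against Pi16-type cells of HFD 2 of 6 were higher and 2 lower, with a median of -0.56. Itga8, an integrin gene, was at 49.3 CPM in ND members and 2.73 in Pi16-type cells. It was found in 12.9% of ND members and 15.2% of Fmod-type cells of ND. Airway club cell markers summed to 372 CPM in ND members and 0 in HFD members, and the part of lung tissue in the ND library was not tested.

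Other genes, also chosen after the values were seen, were found in ND members and in 1 or no HFD member. Angpt4, an angiopoietin gene, was at 102 CPM in 25 ND members, 11.8 CPM in Pi16-type and 35.1 in Fmod-type cells, and had no UMI in 46 HFD members, at least 6.09-fold lower with 3 UMIs in place of 0. Lrat, an enzyme gene that stores vitamin A as esters, had 41 UMIs in 9 ND members, at 72.2 CPM against 0.455 in Pi16-type cells, and none in HFD members. Pappa2, a protease of the insulin-like growth factor pathway, was at 47.6 CPM in 15 ND members and had no UMI in HFD members. Dlk1, a preadipocyte factor, was at 93.4 CPM in 13 ND members, 6.83 in Pi16-type cells and had 1 UMI in HFD members. These genes were rare in other HFD cells as well. None of the 296 Pi16-type cells of HFD held Lrat, Pappa2 or Dlk1, and 4 held Angpt4. Of 2291 HFD cells outside the fibroblasts none held Lrat, 2 held Pappa2, 2 Angpt4 and 21 Dlk1.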
